A study of Mus musculus with 12 samples.

Results

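Liver from Balb/c mice taken 6 h after an injection of concanavalin A (ConA) was compared with control liver, gene by gene, on 6 Affymetrix Mouse 430 2.0 arrays. ConA is a plant lectin that binds sugars on cell surfaces. The comparison held the 3 arrays labelled 6 hr (agent ConA) and the 3 arrays labelled 0 hr, out of 12 arrays in the series, and all 18193 genes that could be named by a single symbol were tested. All mice were males of 8 to 10 weeks with no genetic change given in the labels, and whole liver was used. ConA had been given at 20 mg/kg into the tail vein. The control mice are called untreated in the labels, whereas the methods name an injection of PBS, and no control is labelled 6 hr, so the effect of ConA and that of the hours passed cannot be told apart. Liver was extracted mouse by mouse per the labels, but they do not say which mouse each array came from, so the p-values measure the spread between arrays.

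ConA injection is a model of immune-mediated hepatitis. ConA gathers in the liver sinusoids and activates T cells and natural killer T (NKT) cells, which release interferon gamma, tumour necrosis factor and interleukins. Interferon gamma acts on genes of antigen presentation and cell-autonomous defence, interleukin 6 acts through STAT3 on hepatocyte genes of the acute phase, and tumour necrosis factor acts through NF-kB and can kill hepatocytes. The hepatocyte, which makes most of the RNA of whole liver, carries out drug metabolism, bile acid synthesis, glucose output and ureagenesis.

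Values are the deposited linear signals, quoted in the order of replicates 1, 2 and 3. Signals under 3.04, the 20th percentile of all values, were raised to that floor before log2 was taken, and each gene was read from its brightest probe. Changes are log2 differences between group means with the standard error (SE) of the limma fit, 3 arrays per group, with p-values adjusted by the method of Benjamini and Hochberg over all genes and called under 0.05. Where all arrays of a group were under the floor, a fold is given as "at least". Where only some arrays of a group were under it, the fold was computed with those arrays at the floor and is smaller than their deposited signals would give.

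At 6 h, 2803 genes were higher than in control liver (15.4% of those tested) and 2307 were lower (12.7%). Of the higher genes 1349 differed at least 2-fold, 445 at least 4-fold and 80 at least 16-fold, against 1063, 257 and 13 of the lower genes. The rises therefore reached larger folds more often than the falls, although the median fold of the called genes was close in both directions, 1.96 for genes that rose and 1.93 for genes that fell. In 2781 of the higher and 2289 of the lower genes the 3 arrays of 6 h all lay beyond the 3 controls. Among all genes tested, called or not, 4013 lay above the controls on all arrays of 6 h and 3361 lay below them. Such separation also occurred without a call, and nearly all called genes had it. Where it is stated below for a called gene, it therefore adds little to the call. The array medians ranged from 13.7 to 20.4 over the 12 arrays, and quantile normalization of the arrays shifted the balance to 2593 higher and 3227 lower genes, so that the share of called genes that rose was 54.9% as deposited and 44.6% after quantile normalization. Of the calls, 2515 higher and 2303 lower genes were made under both scalings.

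**Figure D1:**
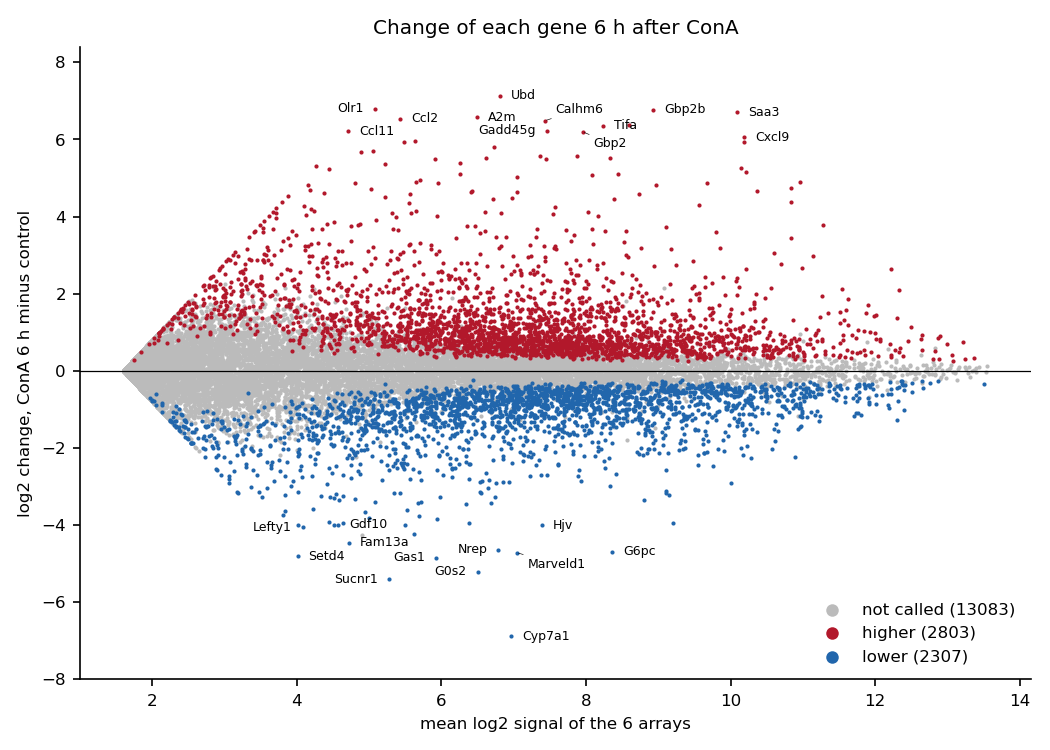
Change at 6 h of every gene tested (y axis, log2 difference of ConA 6 h minus control, 3 arrays per group) against its mean log2 signal over these 6 arrays (x axis). Filled points are the 2803 genes called higher and the 2307 called lower, and grey points the rest. The 12 largest rises and falls with arrays apart are named. Beyond 4 on either side, a 16-fold change, lie 80 of the higher genes and 13 of the lower genes.

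The 12 largest rises with arrays apart were those of Ubd, Olr1, Gbp2b, Saa3, A2m, Ccl2, Calhm6, Tifa, Gadd45g, Ccl11, Gbp2 and Cxcl9. Ubd, a ubiquitin-like modifier that sends proteins to the proteasome, read 10.4, 13.8 and 6.03 in control liver and 1658, 1352 and 1070.5 at 6 h, a rise of 141-fold (log2 change 7.14 ± 0.40, adjusted p = 3.7e-06). Olr1, a scavenger receptor for oxidised lipoprotein, read 2.48, 3.56 and 0.12 in control liver and 336, 341 and 395 at 6 h, with 2 controls under the floor, 111-fold (log2 change 6.80 ± 0.11, adjusted p = 3.9e-09). Tifa, an adaptor that carries signals of the TNF receptor-associated factors to NF-kB, read 37.8, 31.2 and 31.7 in control liver and 2299, 3005 and 2951 at 6 h, 81.7-fold (log2 change 6.35 ± 0.23, adjusted p = 4.4e-07). In all of these the arrays of 6 h were close to each other and the controls were far lower. Calhm6, a member of the calcium homeostasis modulator channels, read 25.1, 16.1 and 14.9 in control liver and 2016, 1776 and 1211 at 6 h, 89.6-fold (log2 change 6.48 ± 0.28, adjusted p = 8.3e-07). Gadd45g, a growth arrest gene, read 15.8, 8.33 and 63.5 in control liver and 1105, 1761 and 1820.2 at 6 h, 75.1-fold (log2 change 6.23 ± 0.60, adjusted p = 8.2e-05). The controls of Gadd45g were the least even of these, and its log2 change was 5.59 without control array 2 and 7.05 without control array 3.

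The 12 largest falls with arrays apart were those of Cyp7a1, Sucnr1, G0s2, Gas1, Setd4, Marveld1, G6pc, Nrep, Fam13a, Lefty1, Hjv and Gdf10. Sucnr1, the receptor for succinate, read 245, 289 and 224 in control liver and 13.3, 5.12 and 0.357 at 6 h, 42.5-fold lower (log2 change -5.41 ± 0.46, adjusted p = 3.8e-05). Marveld1, a membrane protein with a MARVEL domain, read 694, 662 and 670.0 in control liver and 28.1, 17.7 and 34.1 at 6 h, 26.3-fold lower (log2 change -4.72 ± 0.23, adjusted p = 2.0e-06). The groups stood wide apart in both. Gas1, a growth arrest protein of the cell surface, read 316, 404 and 276 in control liver and 10.8, 4.5 and 29.8 at 6 h, 29-fold lower (log2 change -4.86 ± 0.59, adjusted p = 3.0e-04), with a log2 change of -4.19 without 6 h array 2 and -5.55 without 6 h array 3. Nrep read 537, 378 and 824 in control liver and 31.6, 25.6 and 13.2 at 6 h, 25-fold lower (log2 change -4.64 ± 0.46, adjusted p = 1.0e-04). Fam13a read 137, 154 and 91.4 in control liver and 7.42, 7.92 and 2.99 at 6 h, 22.1-fold lower (log2 change -4.47 ± 0.42, adjusted p = 7.4e-05). The arrays of 6 h lay below the controls in all of these by the choice of genes. For Sucnr1 and for Fam13a 1 array of 6 h was under the floor. Lefty1, an antagonist in the TGF-beta superfamily, fell 16.7-fold (log2 change -4.06 ± 0.60, adjusted p = 9.2e-04). Gdf10, a ligand of the bone morphogenetic protein family, fell 16-fold (log2 change -4.0 ± 0.42, adjusted p = 1.4e-04). Setd4, a methyltransferase, was under the floor on all arrays of 6 h and fell at least 28.1-fold (log2 change -4.81 ± 0.53, adjusted p = 1.8e-04). Cyp7a1, G0s2, G6pc and Hjv are described with their pathways.

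**Figure D2:**
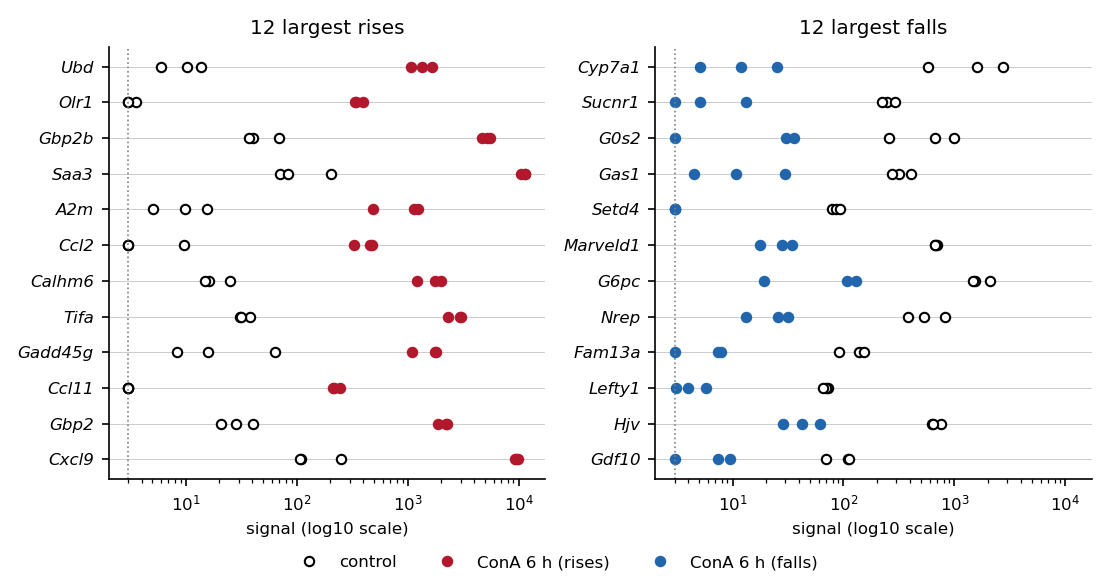
Signal on each array (x axis, log10 scale, floor at 3.04) of the 12 genes with the largest rises and the 12 with the largest falls (rows), with control arrays as open circles and arrays of 6 h as filled circles. Genes were picked only where the 3 arrays of 6 h all lay beyond the 3 controls, so the separation in every row follows from the choice.

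The tissue was checked against markers of its cell types. Hepatocyte genes stood far above the floor on every array. Alb (albumin) read 9211, 9852 and 10302 in control liver and 10205, 10331 and 10664 at 6 h. Ttr (transthyretin) read 9742, 10712 and 11598 in control liver and 11007, 11154 and 12331 at 6 h. Apoa1 (the main protein of high-density lipoprotein) read 12304, 11450.0 and 12456 in control liver and 11246, 11980.0 and 12054 at 6 h, with arrays of the groups overlapping and no change past the test (adjusted p = 0.43, 0.42 and 0.81). Of 15 hepatocyte markers 1 was higher and 2 were lower, and their summed signal ranged from 99294 to 105440 in controls and from 94361 to 102050 at 6 h. After quantile normalization 5 of the 15 were lower. In whole liver, fewer cells of a type and less RNA per cell cannot be told apart.

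Markers of leukocytes were higher more often than lower. Of 15 neutrophil markers 13 were higher and none was lower, and their summed signal was 175 to 260.1 in controls and 2050 to 3023 at 6 h. S100a8, which forms calprotectin with S100a9, read 30.6, 22.4 and 20 in control liver and 866, 1289 and 1291 at 6 h, 47.2-fold (log2 change 5.56 ± 0.22, adjusted p = 6.3e-07). S100a9 read 25.4, 22.8 and 20.9 in control liver and 535, 872 and 923 at 6 h, 32.9-fold (log2 change 5.04 ± 0.25, adjusted p = 2.1e-06). Array 1 of 6 h was the lowest of its group for both genes, and it was far above the controls. Clec4d, a lectin receptor of myeloid cells, rose 12.8-fold (log2 change 3.68 ± 0.22, adjusted p = 5.6e-06). Cxcr2, the receptor through which neutrophils follow Cxcl1 and Cxcl2, rose 5.97-fold (log2 change 2.58 ± 0.37, adjusted p = 8.1e-04). Among 15 monocyte and macrophage markers 8 were higher and 1 lower (summed signal 3902 to 4509 in controls and 6465 to 7729 at 6 h), among them Ccr2 (3.36-fold), Plac8 (3.49-fold) and Chil3, which was under the floor on all controls and rose at least 14.8-fold. Cd14, described with the Toll-like receptors, had the largest rise of these markers. It read 37, 57 and 50.9 in control liver and 1722, 2673 and 2276 at 6 h. Most of the rise in the summed signal was therefore that of Cd14 alone. T cell markers separated less widely. Of 17 T cell markers 6 were higher (269 to 449.5 against 523 to 582, 3 higher without control array 2), including Cd2 at 4.29-fold and Cd5 at 3.92-fold. Cd3e, a chain of the T cell receptor complex, read 30.1, 20.7 and 23.9 in control liver and 50.7, 30.7 and 28.5 at 6 h and did not pass the test (adjusted p = 0.18). Of 15 NK cell and cytotoxic lymphocyte markers 4 were higher (104.5 to 170.2 against 556 to 719). One of them was Gzmb, a granzyme, at 9.21, 1.74 and 3.46 in control liver and 311, 201 and 219 at 6 h, 52-fold (log2 change 5.70 ± 0.54, adjusted p = 7.8e-05). A large part of the rise in the summed signal of these markers was that of Gzmb. Of 12 dendritic cell markers 5 were higher (552 to 699.5 against 1796 to 2053). One of them was Irf8, described with the interferon regulatory factors, and most of the rise in this sum was that of Irf8. Of 12 platelet markers 4 were higher (317 to 401 against 541 to 622) and none lower (1 without control array 3). Erythroid markers were lower in 1 of 8 cases (12.5%, near the 12.7% of all genes), and in 2 without control array 1 or 1 h array 2 or 3. Their summed signal was 1109 to 1604 in controls and 910 to 999 at 6 h. Cholangiocyte markers were 1 higher and 1 lower of 10 (10% each, against 15.4% and 12.7% of all genes), with 2 lower without control array 2. Their sum was 423 to 470 in controls and 304 to 371 at 6 h. Of 12 B cell markers 2 were higher, neither of which passed after quantile normalization or without control array 1, 2 or 3 or 6 h array 1 or 3, and 1 was lower without 6 h array 3. The B cell sum was 263 to 345 in controls and 369 to 483 at 6 h.

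Markers of the resident sinusoidal cells were lower more often than higher. Of 20 sinusoidal endothelial markers 9 were lower and 2 higher (1 higher without 6 h array 2 or 3), of 19 stellate cell markers 10 were lower and none was higher (1 without 6 h array 2), and of 15 Kupffer cell markers 5 were lower and 2 higher. Cd163, the haemoglobin scavenger receptor of Kupffer cells, read 116, 117 and 97.1 in control liver and 8.18, 9.79 and 7.97 at 6 h, 12.7-fold lower (log2 change -3.67 ± 0.14, adjusted p = 5.8e-07). Vsig4 fell 3.13-fold and Clec4f fell 2.65-fold. Marco, a scavenger receptor that was under the floor on all controls, rose at least 13.6-fold. Of the endothelial markers Tek, the angiopoietin receptor, read 84.7, 98.9 and 54.8 in control liver and 10.9, 7.46 and 6.45 at 6 h, 9.57-fold lower (log2 change -3.26 ± 0.26, adjusted p = 2.7e-05). Kdr, the VEGF receptor, fell 4.92-fold and Gpr182 fell 5.48-fold. Of the stellate markers Lrat, the enzyme that makes the stored form of vitamin A, read 114, 205 and 201 in control liver and 11.2, 23.6 and 14.3 at 6 h, 10.7-fold lower (log2 change -3.43 ± 0.58, adjusted p = 0.0018). Pdgfrb fell 4.42-fold. The groups did not overlap in any of these genes. The summed Kupffer signal was 4119 to 5451 in controls and 2594 to 3366 at 6 h. The summed stellate signal was 4812 to 6213 in controls and 3229.7 to 3777 at 6 h. The endothelial sum did not separate the groups, because control array 3 read 2454 against 4376 and 4720 on the other controls, and the arrays of 6 h read 2466 to 2672. Without control array 3, 10 endothelial markers were lower. The count of lower stellate markers was 5 or 6 without any 1 of control arrays 1 and 2 and of the arrays of 6 h. These shifts run beside every result below, and their part in the results was not tested.

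**Figure D3:**
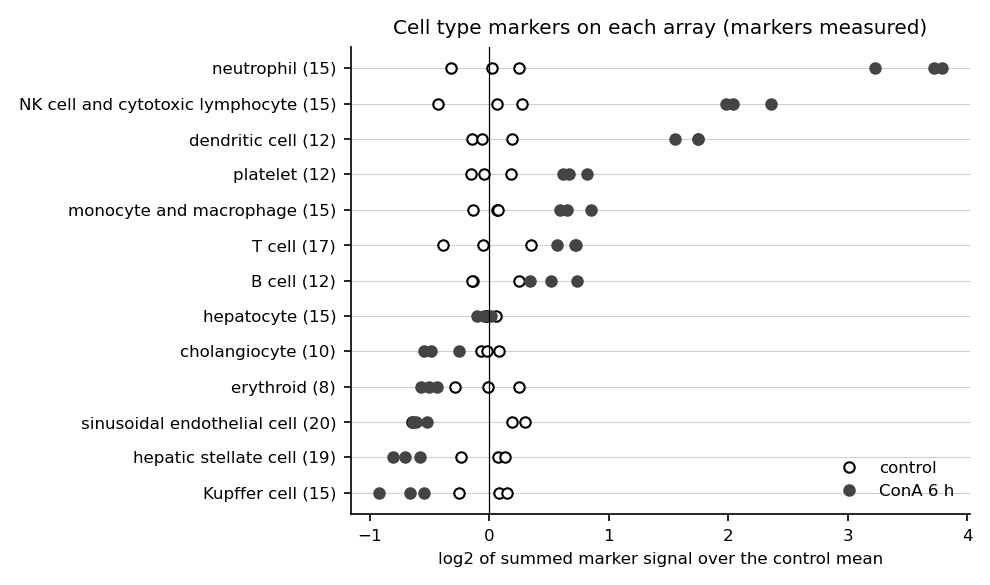
Summed signal of the measured markers of 13 cell types on each control array (open circles) and each array of 6 h (filled circles), divided by the mean of the 3 control arrays (x axis, log2 scale, 0 is the control mean). At 6 h the sums of neutrophil, cytotoxic lymphocyte, dendritic cell, monocyte, platelet, T cell and B cell markers lie above all controls. Those of Kupffer cell, stellate cell, cholangiocyte and erythroid markers lie below all controls, and hepatocyte markers stay near 0. Most of the rise was that of Cd14 for monocyte and macrophage markers and of Irf8 for dendritic cell markers. A large part of the cytotoxic lymphocyte rise was that of Gzmb.

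Interferon-induced genes were higher in most of the measured members. Of 12 measured GTPases of the guanylate-binding protein (GBP) and immunity-related GTPase (IRG) families, which attack the vacuoles of pathogens inside cells, 11 were higher and none was lower, with a median log2 change of 3.95 against 0.02 over all genes. Of 32 antiviral interferon-stimulated genes 28 were higher and none lower (median 2.25), and of 19 genes of MHC class I processing 17 were higher and none lower (median 1.32). MHC class II genes moved less, with 7 of 13 higher (median 0.90). Of 8 interferon regulatory factors 6 were higher and 1 was lower. Ifng itself, the cytokine that T and NKT cells release, read 0.163, 4.83 and 0.982 in control liver and 139, 74.2 and 76.4 at 6 h, with 2 controls under the floor, 26-fold (log2 change 4.70 ± 0.38, adjusted p = 3.1e-05).

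Because the members of the GTPase families moved together, the bases before their start sites are shown. The promoters are those of RefSeq (GRCm38.p6), and the 250 bases before each start were searched on both strands for GAAANNGAA, the core of the interferon-stimulated response element to which interferon regulatory factors bind. Each stretch is 60 bases of the gene's own strand, 5′ to 3′, and capitals mark the motif on either strand.
Gbp2, chr3:142620579-142620638, plus strand: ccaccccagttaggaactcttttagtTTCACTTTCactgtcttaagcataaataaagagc
Gbp3, chr3:142559980-142560039, plus strand: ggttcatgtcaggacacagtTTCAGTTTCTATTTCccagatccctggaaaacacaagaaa
Igtp, chr11:58199496-58199555, plus strand: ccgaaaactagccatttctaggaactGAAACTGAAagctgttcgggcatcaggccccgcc
Irgm1, chr11:48871421-48871480, minus strand: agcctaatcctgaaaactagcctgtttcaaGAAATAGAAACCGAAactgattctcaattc
Cxcl9, chr5:92328221-92328280, minus strand: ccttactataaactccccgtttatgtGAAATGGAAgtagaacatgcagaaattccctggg
Cxcl10, chr5:92349069-92349128, minus strand: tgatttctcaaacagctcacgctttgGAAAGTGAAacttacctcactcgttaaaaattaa
Rsad2, chr12:26456538-26456597, minus strand: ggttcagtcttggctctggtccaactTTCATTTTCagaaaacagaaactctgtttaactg
The motif was found in 7 of the 8 GTPase genes with a promoter in that table (87.5%) and in 9 of 22 antiviral genes (40.9%), against 7.51% of all 14452 genes with a promoter, 8.69% of the genes called higher and 6.89% of those called lower. In Gbp3 and Irgm1 overlapping matches ran together. The capitals began 44, 34 and 30 bases before the start in Gbp3, Igtp and Irgm1, and in Cxcl9 and Cxcl10 they began further out, at 175 and 213 bases. It shared a base with the gamma-activated site, TTCNNNGAA, in 0.122% of promoters.

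Gbp2 read 40.8, 28.4 and 20.8 in control liver and 2236, 2263 and 1897 at 6 h, 73.6-fold (log2 change 6.20 ± 0.25, adjusted p = 6.3e-07). Gbp2b read 40.1, 68.7 and 36.8 in control liver and 5474, 5153 and 4653 at 6 h, 109-fold (log2 change 6.77 ± 0.25, adjusted p = 4.7e-07). Ifi47, an IRG protein, read 168, 207 and 224 in control liver and 7271, 7676 and 6479 at 6 h, 36-fold (log2 change 5.17 ± 0.17, adjusted p = 3.7e-07). In each of these every array of 6 h was far above every control, and the arrays of 6 h differed little from each other. Igtp and Irgm1, whose promoters are shown, rose by smaller factors, again with no overlap. Igtp read 553, 446 and 692 in control liver and 6694, 6039.6 and 5391 at 6 h, 10.8-fold (log2 change 3.44 ± 0.22, adjusted p = 8.0e-06). Irgm1 read 259, 221 and 293 in control liver and 3360.3, 3368 and 2611 at 6 h, 12.1-fold (log2 change 3.59 ± 0.18, adjusted p = 2.0e-06).

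Among antiviral genes Ifit2, which binds viral RNA, rose 17.4-fold (log2 change 4.12 ± 0.37, adjusted p = 5.6e-05). Zbp1, a sensor of Z-form nucleic acid that can start necroptosis, rose 17-fold (log2 change 4.08 ± 0.43, adjusted p = 1.4e-04). Herc6, a ligase for ISG15, rose 12.4-fold (log2 change 3.63 ± 0.13, adjusted p = 4.4e-07) and Oasl2 rose 11.1-fold (log2 change 3.47 ± 0.15, adjusted p = 9.1e-07). Others changed less. Rsad2 (viperin) read 175, 153 and 199.6 in control liver and 678, 566 and 726 at 6 h, 3.74-fold (log2 change 1.90 ± 0.21, adjusted p = 1.6e-04). Bst2 (tetherin) read 404, 289.6 and 369 in control liver and 721, 729 and 665 at 6 h, 2.01-fold (log2 change 1.01 ± 0.16, adjusted p = 0.0013). All 3 arrays of 6 h were above the controls in these genes.

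Of the antigen-processing genes, Tap1, a subunit of the peptide transporter, read 53.8, 65.2 and 69.1 in control liver and 1169, 1141 and 953 at 6 h, 17.4-fold (log2 change 4.12 ± 0.15, adjusted p = 4.4e-07). The immunoproteasome subunits Psmb9 and Psmb8 rose 8.97-fold (log2 change 3.17 ± 0.12, adjusted p = 4.8e-07) and 5.25-fold (log2 change 2.39 ± 0.14, adjusted p = 6.2e-06). Tapbpl, which edits the peptides loaded on class I, rose 6.19-fold. The transporter, the protease subunits and the editor of class I thus rose together. B2m, the light chain of class I, read 6836, 6629 and 5884 in control liver and 7746, 8144 and 7765 at 6 h, a change of 1.22-fold (adjusted p = 0.029) that did not pass after quantile normalization (adjusted p = 0.18) or without control array 3 or 6 h array 1, 2 or 3 (adjusted p 0.059 to 0.086). Of the 7 class II genes that rose Cd74, the invariant chain, read 209, 142 and 138 in control liver and 569, 503 and 492 at 6 h, 3.25-fold (log2 change 1.70 ± 0.18, adjusted p = 1.3e-04). H2-Ab1 rose 2.86-fold and H2-Eb1 2.57-fold. H2-Aa read 117, 91.9 and 86.7 in control liver and 193, 201 and 136 at 6 h and missed the threshold (adjusted p = 0.08).

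Of the interferon regulatory factors Irf1 read 269.6, 293 and 242 in control liver and 2291, 1732 and 1752 at 6 h, 7.13-fold (log2 change 2.83 ± 0.15, adjusted p = 3.2e-06). Irf8 read 54.7, 41.2 and 36.9 in control liver and 865, 870.2 and 751 at 6 h, 19-fold (log2 change 4.24 ± 0.18, adjusted p = 6.9e-07). Irf7 read 203, 139 and 168 in control liver and 955, 938 and 917 at 6 h, 5.58-fold (log2 change 2.48 ± 0.14, adjusted p = 4.0e-06). The arrays of 6 h were even for all of these, and none came near a control. Irf9 rose 1.92-fold (log2 change 0.94 ± 0.15, adjusted p = 0.0012).

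Cytokine signals and their feedback inhibitors changed as follows. Of 16 lymphokines 7 were higher and none was lower. Il2, the T cell growth factor, read 2.1, 1.75 and 0.92 in control liver and 44.7, 47.3 and 55.6 at 6 h, at least 16.1-fold up (log2 change 4.01 ± 0.50, adjusted p = 3.3e-04). Il21 read 0.244, 2.64 and 3.94 in control liver and 28.7, 25.9 and 35.4 at 6 h, 8.96-fold (log2 change 3.16 ± 0.19, adjusted p = 7.0e-06). Ltb (lymphotoxin beta) rose 8.73-fold. The arrays of 6 h were close to each other for Il2 and Il21. Tnf was under the floor on all controls and read 42.6, 6.73 and 58.6 at 6 h, at least 8.41-fold up (log2 change 3.07 ± 0.66, adjusted p = 0.007). Its arrays were the most uneven of these, with array 2 far below the other two, and its log2 change was 4.04 without 6 h array 2 and 2.48 without 6 h array 3. With the 6 arrays of the comparison alone in the fit, Tnf did not pass (adjusted p = 0.063). Il4, a cytokine of NKT cells and T helper cells, read 4.57, 1.4 and 3.34 in control liver and 11.9, 7.95 and 5.76 at 6 h, 2.27-fold (adjusted p = 0.022), a call that was lost without control array 2 or 3 or 6 h array 1 or 2 (adjusted p 0.055 to 0.075) and with the 6 arrays alone in the fit (adjusted p = 0.054).

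Of 22 T cell activation and costimulation genes 13 were higher and none was lower. Cd274 (PD-L1), an inhibitory ligand that tissue cells also carry, read 8.88, 5.66 and 14.5 in control liver and 508, 374 and 344 at 6 h, 44.7-fold (log2 change 5.48 ± 0.33, adjusted p = 6.8e-06). Cd69, an early activation antigen, rose 15.7-fold (log2 change 3.97 ± 0.24, adjusted p = 6.7e-06), and Ctla4, an inhibitory receptor, was under the floor on all controls and rose at least 6.38-fold (log2 change 2.67 ± 0.60, adjusted p = 0.0088). The arrays of 6 h were all above the controls in these genes.

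Of 18 SOCS, JAK and STAT genes 11 were higher and none lower. Socs1, the inhibitor of interferon signalling, read 2.4, 14.1 and 5.78 in control liver and 472, 380.0 and 331 at 6 h, 62.1-fold (log2 change 5.96 ± 0.45, adjusted p = 2.2e-05). Socs3, the inhibitor of interleukin 6 signalling, read 37.8, 60.3 and 90.6 in control liver and 2018, 2508 and 1690.4 at 6 h, 34.6-fold (log2 change 5.11 ± 0.30, adjusted p = 5.7e-06). Both were far above their controls on every array. Socs2 and Cish, inhibitors of growth hormone signalling, rose 12.6-fold (log2 change 3.65 ± 0.39, adjusted p = 1.5e-04) and 3.43-fold (log2 change 1.78 ± 0.25, adjusted p = 7.2e-04). In the interleukin 6 family 5 of 12 genes were higher and 1 was lower, and none was lower without control array 1, 1 h array 1 or 3, 3 h array 1 or 2 or 6 h array 1 or 3. Il6 read 0.557, 4.92 and 4.14 in control liver and 35, 16.7 and 15.3 at 6 h, 5.25-fold (log2 change 2.39 ± 0.36, adjusted p = 0.001). Osmr, the oncostatin M receptor, read 32.7, 37.5 and 11.2 in control liver and 311, 357 and 312 at 6 h, 13.6-fold (log2 change 3.77 ± 0.37, adjusted p = 1.0e-04). Stat3 read 812, 810.1 and 606 in control liver and 2595, 3111 and 2551 at 6 h, 3.72-fold (log2 change 1.90 ± 0.14, adjusted p = 2.3e-05). Il6, Osmr and Stat3 were above the controls on every array of 6 h. Il6st, the shared receptor chain, rose 2.16-fold. In the interleukin 1 family 14 of 20 genes were higher and 2 lower (1 lower without control array 1 or 2 or 6 h array 3). Il1rn, the receptor antagonist, read 23.5, 58 and 13.7 in control liver and 359, 778 and 764 at 6 h, 22.5-fold. Il1r1 read 65, 77.5 and 73.1 in control liver and 1159, 1820.2 and 1865 at 6 h, 22-fold. Il1b rose less, 4.69-fold (log2 change 2.23 ± 0.26, adjusted p = 2.3e-04).

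Chemokines were largely higher. Of 15 CXC chemokines 11 were higher and 1 was lower (median log2 change 2.10), and of 19 CC and other chemokines 14 were higher and none lower (median 2.54, with 1 lower without 6 h array 1). The ligands of CXCR3 on activated T cells read as follows. Cxcl9 read 109.5, 249.9 and 107 in control liver and 9355, 9819 and 9526 at 6 h, 66.9-fold (log2 change 6.06 ± 0.40, adjusted p = 1.0e-05). Cxcl10 read 29.4, 60.2 and 22.9 in control liver and 2084, 1427 and 1431 at 6 h, 47.2-fold (log2 change 5.56 ± 0.35, adjusted p = 8.0e-06). Cxcl11 rose 28.4-fold (log2 change 4.83 ± 0.17, adjusted p = 4.4e-07). The highest control of each stayed far below the lowest array of 6 h. Of the neutrophil attractants Cxcl1 read 225, 321 and 248 in control liver and 5741, 7318 and 7019 at 6 h, 25.4-fold (log2 change 4.67 ± 0.15, adjusted p = 3.7e-07). Cxcl2 read 0.571, 8.82 and 5.06 in control liver and 75.3, 106 and 432 at 6 h, 29.4-fold (log2 change 4.88 ± 0.60, adjusted p = 3.3e-04), with array 3 of 6 h far above the others and a log2 change of 4.12 without 6 h array 3. Cxcl12, a homeostatic chemokine of stromal cells, went the other way. It read 1131, 1006 and 816 in control liver and 458, 286 and 222 at 6 h, 3.17-fold lower (log2 change -1.67 ± 0.26, adjusted p = 0.0012).

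Ccl2, which draws monocytes, read 1.44, 9.62 and 1.0 in control liver and 481, 330.1 and 454 at 6 h, with 2 controls under the floor, 93.1-fold (log2 change 6.54 ± 0.44, adjusted p = 1.1e-05). Ccl11, which draws eosinophils, read 2.5, 1.75 and 0.635 in control liver and 214, 247 and 218 at 6 h, at least 74.2-fold up (log2 change 6.21 ± 0.37, adjusted p = 6.4e-06). Ccl17 rose 13.1-fold and Ccl3 at least 7.14-fold. Of 21 chemokine receptors 8 were higher and 2 lower. Ackr1, an endothelial receptor that takes up chemokines, rose 5.95-fold (log2 change 2.57 ± 0.24, adjusted p = 7.7e-05). Ccr3, the receptor for Ccl11, read 20.5, 24.2 and 15.6 in control liver and 0.289, 0.342 and 1.74 at 6 h, at least 6.5-fold lower (log2 change -2.70 ± 0.31, adjusted p = 2.1e-04).

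NF-kB subunits and inhibitors were higher in 20 of 22 cases, with none lower (median log2 change 2.04). Relb read 13.9, 21.2 and 15.8 in control liver and 142, 135 and 159 at 6 h, 8.67-fold (log2 change 3.12 ± 0.16, adjusted p = 2.6e-06). Rela, the main activating subunit, read 445, 442 and 452 in control liver and 1062, 1212 and 1162 at 6 h, 2.56-fold (log2 change 1.36 ± 0.10, adjusted p = 1.6e-05). The feedback inhibitor Tnfaip3 (A20) read 19.8, 26.3 and 35.9 in control liver and 509, 792 and 697 at 6 h, 24.7-fold (log2 change 4.63 ± 0.24, adjusted p = 2.7e-06). Activating subunits and inhibitors of NF-kB thus rose side by side. Nfkbia read 1876, 2139.8 and 1580.0 in control liver and 2664, 3692 and 3521 at 6 h, 1.76-fold (log2 change 0.82 ± 0.16, adjusted p = 0.0041). Bcl3 and Ikbke rose 7.73-fold and 8.05-fold. The kappa-B motif searched for was GGANTTTCC.
Nfkbia, chr12:55492648-55492707, minus strand: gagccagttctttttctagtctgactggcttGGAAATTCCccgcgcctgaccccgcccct
Tnfaip3, chr10:19015411-19015470, minus strand: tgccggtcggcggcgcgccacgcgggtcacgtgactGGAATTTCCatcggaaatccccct
Cxcl2, chr5:90903777-90903836, plus strand: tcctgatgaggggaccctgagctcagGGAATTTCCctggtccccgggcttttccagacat
It was found in 4 of 18 genes of the list with a promoter (22.2%), against 1.39% of all genes and 1.94% of the genes called higher. The gamma-activated site, to which STAT dimers bind, was found in 7.42% of all genes and 8.47% of those called higher. By list it was found in 3 of 8 GTPase genes (37.5%), 7 of 23 acute-phase genes (30.4%) and 5 of 22 antiviral genes (22.7%). It was also found in 3 of 18 NF-kB genes (16.7%), 2 of 12 aminoacyl-tRNA synthetases (16.7%) and 3 of 31 unfolded protein response genes (9.68%). The site is shown for 3 genes that rose.
Irf1, chr11:53769898-53769957, plus strand: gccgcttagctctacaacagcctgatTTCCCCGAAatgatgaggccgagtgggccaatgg
Icam1, chr9:21015872-21015931, plus strand: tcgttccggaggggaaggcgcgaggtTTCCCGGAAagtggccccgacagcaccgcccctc
Socs3, chr11:117969487-117969546, minus strand: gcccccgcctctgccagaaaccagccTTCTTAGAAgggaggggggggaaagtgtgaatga
A motif match describes these letters in this window and nothing about occupancy.

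Of 22 adhesion genes 13 were higher and none lower. Icam1, through which leukocytes hold on to endothelium, read 66.9, 70.3 and 77.4 in control liver and 1207, 1124 and 1146 at 6 h, 16.2-fold (log2 change 4.02 ± 0.10, adjusted p = 1.0e-07). Vcam1 read 66.2, 88.7 and 52.6 in control liver and 846, 845 and 658 at 6 h, 11.5-fold (log2 change 3.52 ± 0.19, adjusted p = 2.7e-06), and the selectins Sele and Selp rose 9.42-fold and 4.89-fold. Of 20 Toll-like receptors and adaptors 12 were higher and 2 lower. Cd14, which hands lipopolysaccharide to the receptor, read 37, 57 and 50.9 in control liver and 1722, 2673 and 2276 at 6 h, 46-fold (log2 change 5.52 ± 0.23, adjusted p = 7.8e-07). Lbp, which brings it to Cd14, read 681, 592 and 649 in control liver and 4210.5, 4505 and 4267 at 6 h, 6.76-fold (log2 change 2.76 ± 0.09, adjusted p = 3.7e-07). Both carriers of lipopolysaccharide were higher on every array, as was a receptor for bacterial lipoproteins. Tlr2 read 26.3, 30.3 and 21.9 in control liver and 1126, 1373 and 1057 at 6 h, 45.4-fold (log2 change 5.50 ± 0.18, adjusted p = 3.7e-07). Myd88 rose 5.78-fold. In the TNF receptor superfamily 12 of 23 genes were higher and 2 lower (1 lower without control array 1, 2 or 3, 1 h array 2 or 6 h array 2 or 3). Tnfrsf12a, the receptor of TWEAK on injured epithelium, read 30.7, 12.6 and 28.8 in control liver and 271, 316 and 317 at 6 h, 13.4-fold (log2 change 3.75 ± 0.34, adjusted p = 5.9e-05). Tnfrsf1a rose 2.41-fold (log2 change 1.27 ± 0.13, adjusted p = 1.1e-04). Tnfrsf19 fell 6.53-fold (log2 change -2.71 ± 0.45, adjusted p = 0.0018).

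Acute-phase proteins, which hepatocytes secrete in inflammation, were higher in 26 of 27 cases, with none lower (median log2 change 1.37). Saa3 read 70.1, 205 and 84.2 in control liver and 10582, 11418 and 11504 at 6 h, 105-fold (log2 change 6.71 ± 0.32, adjusted p = 1.6e-06). Saa1 read 1711, 1849 and 2196 in control liver and 11629, 12096 and 12039 at 6 h, 6.25-fold (log2 change 2.64 ± 0.15, adjusted p = 3.7e-06). Both serum amyloid A genes reached nearly even values on the 3 arrays of 6 h. Lcn2, which binds bacterial siderophores, read 368, 429 and 281 in control liver and 8911, 9692 and 9719 at 6 h, 26.6-fold (log2 change 4.74 ± 0.23, adjusted p = 1.6e-06). Orm2 read 139, 153 and 162 in control liver and 4545, 4392 and 4415 at 6 h, 29.5-fold (log2 change 4.88 ± 0.18, adjusted p = 4.4e-07). A2m, a protease inhibitor, read 5.04, 15.7 and 9.9 in control liver and 483, 1135 and 1244 at 6 h, 95.5-fold (log2 change 6.58 ± 0.47, adjusted p = 1.6e-05). Array 1 of 6 h was the lowest of the 3 for A2m, and all 3 were far above the highest control. The iron hormone Hamp (hepcidin) read 5514, 7198 and 4424 in control liver and 10104, 10689 and 10397 at 6 h, 1.86-fold (log2 change 0.89 ± 0.22, adjusted p = 0.012).

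Other secreted hepatocyte proteins moved in both directions, 5 of 20 higher and 5 lower. Without control array 1, 6 h array 2 or 6 h array 3 the higher count was 3, and without control array 2 it was 2. Serpina7, a carrier of thyroid hormone, read 169.6, 211 and 96.6 in control liver and 1907, 2419 and 1709 at 6 h, 13.2-fold up (log2 change 3.72 ± 0.36, adjusted p = 8.1e-05). Igfals, which holds IGF1 in the blood, read 523, 461 and 662 in control liver and 159, 121 and 84 at 6 h, 4.62-fold lower (log2 change -2.21 ± 0.27, adjusted p = 2.9e-04). Rbp4, the carrier of retinol, read 7520.5, 7889.5 and 7915 in control liver and 6277, 6122 and 6210.4 at 6 h, 1.25-fold lower (log2 change -0.33 ± 0.07, adjusted p = 0.006). Serpina7 was above and the other two were below control on every array. Igfbp1 read 774, 798 and 865 in control liver and 2428, 7150.2 and 7803 at 6 h, 6.33-fold higher (adjusted p = 0.021), with array 1 of 6 h far below the other two, a call lost without control array 1, 2 or 3 or 6 h array 2 or 3 (adjusted p 0.051 to 0.075). Of 24 complement genes 6 were higher and 4 lower. C1s1, a protease of the classical pathway, rose 1.74-fold (log2 change 0.80 ± 0.10, adjusted p = 3.4e-04). Cfb rose 1.72-fold (log2 change 0.78 ± 0.13, adjusted p = 0.0017). C3ar1, the receptor for C3a, fell 2.32-fold (log2 change -1.21 ± 0.20, adjusted p = 0.0019). The terminal component was less clear. Hc, complement C5, read 2960.4, 2815 and 2890.1 in control liver and 2575, 2794 and 2484 at 6 h and did not pass the test (adjusted p = 0.27).

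Genes of cell death and stress were next. Of 24 death receptors, caspases and necroptosis genes 11 were higher and 3 lower (1 lower without control array 1 or 6 h array 3). Mlkl, which breaks the membrane in necroptosis, read 19.2, 6.62 and 39 in control liver and 449, 411 and 445 at 6 h, 25.5-fold (log2 change 4.67 ± 0.52, adjusted p = 1.8e-04), with a log2 change of 3.99 without control array 2 and 5.27 without control array 3. Fas read 154, 119 and 93.6 in control liver and 535, 639.8 and 426 at 6 h, 4.39-fold (log2 change 2.13 ± 0.32, adjusted p = 9.8e-04). Casp4 rose 7.43-fold (log2 change 2.89 ± 0.20, adjusted p = 1.3e-05). Mlkl, Fas and Casp4 were above control on every array of 6 h. Apaf1, the scaffold of the apoptosome, rose 3.98-fold and Casp8 rose 1.54-fold. The BCL2 family was mixed, with 5 of 18 higher and 2 lower. Among members that protect cells Mcl1 rose 1.99-fold and Bcl2l1 2.31-fold. Bcl2 read 28.7, 28.8 and 14.7 in control liver and 27.7, 32.6 and 28.4 at 6 h (adjusted p = 0.42). Members that promote death went both ways. Among members that promote death Pmaip1 (Noxa) read 1.1, 4.35 and 7.21 in control liver and 37.6, 39.4 and 32.9 at 6 h, 7.99-fold (log2 change 3.00 ± 0.34, adjusted p = 2.0e-04). Bid rose 2.98-fold and Bak1 2.42-fold. Bmf read 119, 105 and 72.4 in control liver and 8.54, 16.7 and 17.7 at 6 h, 7.13-fold lower (log2 change -2.83 ± 0.38, adjusted p = 4.9e-04).

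Of 26 p53 targets and growth arrest genes 11 were higher and 3 lower. Cdkn1a (p21) read 9.39, 12.3 and 26.4 in control liver and 330.3, 794 and 1098 at 6 h, 45.5-fold (log2 change 5.51 ± 0.46, adjusted p = 3.5e-05). Gadd45b read 15.5, 7.14 and 13.8 in control liver and 136, 262 and 215 at 6 h, 17.1-fold (log2 change 4.10 ± 0.37, adjusted p = 5.7e-05). Mdm2, which degrades p53, rose 2.17-fold. Array 1 of 6 h was the lowest for both Cdkn1a and Gadd45b. Gadd45a read 43.5, 78.7 and 61.4 in control liver and 140.4, 71.9 and 71.4 at 6 h, with overlapping groups (adjusted p = 0.33). Of 42 cyclins and cell cycle genes 4 were higher (9.5%) and 7 lower (16.7%), against 15.4% and 12.7% of all genes. The lower count was 4 without control array 3 or 6 h array 1 or 3. Tk1, which makes thymidine phosphate for DNA synthesis, read 199, 163 and 154 in control liver and 29.7, 27.8 and 30.3 at 6 h, 5.84-fold lower (log2 change -2.55 ± 0.21, adjusted p = 3.7e-05). Ccne2 fell 3.21-fold. E2f8 rose 4.84-fold (log2 change 2.27 ± 0.31, adjusted p = 5.5e-04). Both directions occurred among the cell cycle genes that passed, at shares not far from those of all genes. Mki67, a mark of cycling cells, read 9.22, 19.4 and 17.5 in control liver and 15, 23.6 and 19.6 at 6 h (adjusted p = 0.65).

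The amino acid and unfolded protein responses, in which ATF4 drives amino acid supply and chaperones are induced, were higher in 22 of 33 genes and lower in none (median log2 change 0.86, with 1 lower without 6 h array 2). Atf4 read 453, 429 and 385 in control liver and 1183, 1084 and 897 at 6 h, 2.48-fold (log2 change 1.31 ± 0.14, adjusted p = 1.6e-04). Asns, asparagine synthetase, read 12.1, 14 and 10.7 in control liver and 88.6, 58 and 85.5 at 6 h, 6.23-fold (log2 change 2.64 ± 0.21, adjusted p = 2.9e-05). Nupr1, a stress cofactor, read 3.45, 0.533 and 1.28 in control liver and 54.4, 51.7 and 56.1 at 6 h, with 2 controls under the floor, 17-fold (log2 change 4.09 ± 0.28, adjusted p = 1.3e-05). Ddit3 (CHOP) rose 3.27-fold. The chaperone Hspa5 (BiP) read 4727, 4112 and 5571 in control liver and 8413, 8545 and 8458 at 6 h, 1.78-fold (log2 change 0.83 ± 0.14, adjusted p = 0.0018). Creld2, of the endoplasmic reticulum, rose 6.23-fold. Aminoacyl-tRNA synthetases were higher in 18 of 19 cases and lower in none (median 0.66, with 11 higher without 6 h array 2 and 1 lower without 3 h array 1 or 2). Wars, the synthetase for tryptophan, which interferon also induces, read 66.1, 71.7 and 91.1 in control liver and 999.6, 1007 and 893 at 6 h, 12.8-fold (log2 change 3.67 ± 0.16, adjusted p = 7.9e-07), against Rars at 2.63-fold (log2 change 1.39 ± 0.12, adjusted p = 5.1e-05), Yars at 2.63-fold (log2 change 1.39 ± 0.10, adjusted p = 1.4e-05) and Kars at 2.22-fold (log2 change 1.15 ± 0.11, adjusted p = 8.3e-05). The ATF4 element was searched for as TGATGNAA.
Asns, chr6:7693210-7693269, minus strand: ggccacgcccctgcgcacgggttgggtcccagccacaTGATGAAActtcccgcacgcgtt
Chac1, chr2:119351023-119351082, plus strand: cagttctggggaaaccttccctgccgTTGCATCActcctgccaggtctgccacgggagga
Atf3, chr1:191183410-191183469, minus strand: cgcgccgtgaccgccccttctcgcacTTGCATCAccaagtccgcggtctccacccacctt
Tars, chr15:11399659-11399718, minus strand: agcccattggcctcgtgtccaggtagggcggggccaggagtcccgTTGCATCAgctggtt
It was found in 7 of 31 genes of the stress list (22.6%) and 3 of 12 synthetase genes (25%), against 2.84% of all genes and 2.34% of the genes called higher. Chac1, which degrades glutathione, read 89.9, 78.1 and 95.1 in control liver and 215, 411 and 266 at 6 h, 3.28-fold up. Tars, the synthetase for threonine, read 465, 413 and 496 in control liver and 824, 1069 and 967 at 6 h, 2.08-fold up. Both were chosen after their values were seen.

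The metallothioneins Mt1 and Mt2, which bind zinc and copper, rose. Mt1 read 458, 790.2 and 134 in control liver and 10609, 10926 and 11038 at 6 h, 29.8-fold (log2 change 4.90 ± 0.50, adjusted p = 1.2e-04). Mt2 read 166, 364 and 54.5 in control liver and 8979, 9144 and 9084 at 6 h, 61-fold (log2 change 5.93 ± 0.53, adjusted p = 5.3e-05). Control array 3 was the lowest for both, and the log2 changes were 4.17 without control array 3 for Mt1, and 6.58 without control array 2 and 5.21 without control array 3 for Mt2. The NRF2 targets listed with them did not move together, with 7 higher and 6 lower of 28 in all. Hmox1 (heme oxygenase) read 49.7, 43.4 and 23.4 in control liver and 337, 311 and 361 at 6 h, 9.08-fold up (log2 change 3.18 ± 0.29, adjusted p = 6.4e-05). Gclc, which limits glutathione synthesis, read 2112, 1994 and 1895 in control liver and 719, 889 and 704 at 6 h, 2.61-fold lower (log2 change -1.38 ± 0.11, adjusted p = 2.3e-05). Heat shock proteins were 5 higher (18.5%) and 4 lower (14.8%) of 27, near the shares over all genes (15.4% and 12.7%). After quantile normalization 8 were lower, and 3 were higher without control array 1 or 2 or 6 h array 2. Bag3 was 3.03-fold up (log2 change 1.60 ± 0.22, adjusted p = 5.8e-04) and Cryab 1.96-fold lower (log2 change -0.97 ± 0.16, adjusted p = 0.002). Among 24 hypoxia-induced genes 11 were higher and 4 lower. Hif1a rose 2.09-fold (log2 change 1.06 ± 0.14, adjusted p = 4.3e-04). Pfkfb3, which speeds glycolysis, read 27, 37.2 and 94.9 in control liver and 429.8, 939 and 1117 at 6 h, 16.8-fold (log2 change 4.07 ± 0.48, adjusted p = 2.6e-04). Hk2 rose 8.56-fold. Egln3, a sensor of oxygen, read 164, 200.4 and 238 in control liver and 227, 199 and 297 at 6 h (adjusted p = 0.45).

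Of 16 AP-1 and ATF transcription factors 13 were higher and 1 lower (median log2 change 2.20, with none lower without control array 2 or 6 h array 2). Batf2 read 2.76, 5.78 and 4.02 in control liver and 223, 199 and 216 at 6 h, 51.3-fold (log2 change 5.68 ± 0.23, adjusted p = 6.3e-07). Junb read 71.8, 57.4 and 56.6 in control liver and 608, 581 and 565 at 6 h, 9.5-fold (log2 change 3.25 ± 0.13, adjusted p = 6.5e-07). Jun rose 7.71-fold and Fosl2 10-fold. The controls were uneven for Atf3 and Fos. Atf3 read 3.28, 14.4 and 19.3 in control liver and 233, 207 and 263 at 6 h, 24-fold (log2 change 4.59 ± 0.57, adjusted p = 3.3e-04), with a log2 change of 3.81 without control array 1. Fos rose 13.7-fold (log2 change 3.78 ± 0.49, adjusted p = 4.3e-04), with a log2 change of 3.17 without control array 2. A list of 23 EGR, NR4A and Krueppel-like genes, which also held Ier3 from outside these families, had 10 higher and 2 lower. Ier3 read 14.5, 21.7 and 7.05 in control liver and 326, 415 and 685 at 6 h, 34.7-fold (log2 change 5.12 ± 0.44, adjusted p = 4.4e-05). Egr1 rose 7.85-fold, Klf6 6.71-fold and Nr4a1 2.0-fold. Of 23 mRNA decay factors and MAP kinase phosphatases 7 were higher and none was lower, among them Dusp8 at 4.31, 3.99 and 4.32 in control liver and 71, 129.8 and 119 at 6 h, 24.5-fold (log2 change 4.62 ± 0.29, adjusted p = 8.7e-06), Zc3h12a, a nuclease of cytokine mRNA, 17.6-fold up, and Zfp36 (tristetraprolin) 2.57-fold up.

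Transcription factors of the hepatocyte were split, 7 higher and 6 lower of 20. Hnf4a, a master regulator of hepatocyte genes, read 2111, 2203 and 2547 in control liver and 3635, 4293 and 3444 at 6 h, 1.66-fold higher (log2 change 0.73 ± 0.11, adjusted p = 0.0012). Cebpa, which maintains metabolic genes, read 2475, 2749 and 2533 in control liver and 1539.5, 1385 and 1285 at 6 h, 1.85-fold lower (log2 change -0.88 ± 0.17, adjusted p = 0.0036), while its inflammatory relatives Cebpd and Cebpb rose, Cebpd from 80.1, 61.7 and 65.7 to 500.1, 835 and 874, 10.4-fold (log2 change 3.38 ± 0.21, adjusted p = 7.1e-06), and Cebpb 2.13-fold (log2 change 1.09 ± 0.13, adjusted p = 2.9e-04). Of 38 nuclear receptors and coregulators 19 were lower, 1 was higher and 18 did not pass (median log2 change -0.74). Ppargc1a, a coactivator of energy metabolism, read 270.4, 219 and 129 in control liver and 17.6, 23.7 and 20.2 at 6 h, 9.67-fold lower (log2 change -3.27 ± 0.28, adjusted p = 3.8e-05). Its relative Ppargc1b read 321, 464 and 252 in control liver and 37.9, 32.2 and 33 at 6 h, 9.77-fold lower (log2 change -3.29 ± 0.23, adjusted p = 1.6e-05). The 2 coactivators were far below control on all arrays. Ppara, the receptor that drives fatty acid oxidation, read 1852, 2139 and 1499 in control liver and 574, 704 and 425 at 6 h, 3.26-fold lower (log2 change -1.70 ± 0.19, adjusted p = 2.1e-04). Nr2f2 fell 4.9-fold and Esrrg 6.54-fold. Nr1h4, the bile acid receptor, read 810.4, 692 and 613 in control liver and 598, 787 and 537 at 6 h, with overlapping groups (adjusted p = 0.75). After quantile normalization 26 of the 38 were lower.

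Glucocorticoid-induced genes did not act as one group, with 8 higher and 2 lower of 17. The higher count was 4 without control array 1, 6 h array 2 or 6 h array 3, and 5 without control array 3. Fkbp5 read 188, 225 and 196 in control liver and 612, 750.0 and 952 at 6 h, 3.75-fold (log2 change 1.91 ± 0.22, adjusted p = 2.5e-04). Tsc22d3 read 490.1, 383 and 518 in control liver and 198, 280.4 and 279 at 6 h, 1.84-fold lower (log2 change -0.88 ± 0.16, adjusted p = 0.0028). Of 22 clock genes 5 were higher and 9 lower (3 and 9 after quantile normalization). The 5 rises were fragile, with 3 left without control array 2 and 1 left without control array 1 or 3 or 6 h array 2 or 3. Of the 9 that fell Dbp read 1786, 1858 and 1352 in control liver and 408, 192 and 79.2 at 6 h, 8.97-fold lower (log2 change -3.17 ± 0.52, adjusted p = 0.0016), with a log2 change of -2.56 without 6 h array 3. Hlf read 373, 408 and 321 in control liver and 100.2, 66.7 and 58.6 at 6 h, 4.99-fold lower (log2 change -2.32 ± 0.18, adjusted p = 2.8e-05). Usp2 fell 7.11-fold and Per3 3.67-fold. Arntl (BMAL1), an activator of the clock, read 19.6, 19.7 and 22.1 in control liver and 67.5, 118 and 114 at 6 h, 4.74-fold higher (adjusted p = 0.034), a call lost without control array 1, 2 or 3 or 6 h array 2 or 3 (adjusted p 0.073 to 0.097) and with the mean of all its probes (adjusted p = 0.149). In liver these genes vary over the day, and no control is labelled 6 hr, so for them ConA and the time of day cannot be told apart.

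Genes of ribosome assembly were higher, whereas few ribosomal proteins passed the test. Of 47 genes of ribosome biogenesis and RNA polymerase I 33 were higher and none lower (median log2 change 0.80). Nop58, a core protein of the box C/D particles that modify ribosomal RNA, read 32.6, 30.2 and 44.9 in control liver and 179.7, 201 and 168 at 6 h, 5.16-fold (log2 change 2.37 ± 0.22, adjusted p = 7.5e-05). Heatr1 read 205, 207 and 210.3 in control liver and 809, 959 and 814 at 6 h, 4.14-fold (log2 change 2.05 ± 0.12, adjusted p = 4.5e-06). Tsr1 rose 3.78-fold. No array of 6 h overlapped the controls for these genes. Fbl (fibrillarin) read 464, 528 and 558 in control liver and 621, 544 and 612 at 6 h and did not pass (adjusted p = 0.42). Of 47 translation initiation factors 20 were higher and none lower, including Eif1a at 3.74-fold (log2 change 1.90 ± 0.14, adjusted p = 2.0e-05), Eif6 at 3.24-fold (log2 change 1.69 ± 0.13, adjusted p = 2.4e-05) and Eif4e3 at 3.86-fold (log2 change 1.95 ± 0.18, adjusted p = 6.0e-05). Of 47 measured cytosolic ribosomal proteins 3 were higher, with a median log2 change of 0.16. Of 50 nuclear pore and import genes 14 were higher and 4 lower (9 higher without 6 h array 2, and 1 or 2 lower without control array 2 or 6 h array 1 or 3), with Ranbp1 2.06-fold up. Constitutive proteasome subunits were higher in 8 of 34 cases and lower in 1, and in 15 and 2 after quantile normalization (14 higher without 1 h array 1, and none lower without 6 h array 2 or 3). Psmd10, a chaperone of proteasome assembly, read 123, 115 and 121 in control liver and 373, 369 and 351 at 6 h, 3.05-fold (log2 change 1.61 ± 0.15, adjusted p = 8.0e-05). Psma1 rose 2.14-fold.

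Of 80 respiratory chain and ATP synthase subunits none was higher (1 without control array 2) and 13 were lower (median log2 change -0.20), 16.25% against 12.7% of all genes, and 45 were lower after quantile normalization. Without 1 array the lower count ranged from 4, without control array 2 or 6 h array 3, to 21, without 1 h array 1, and it was 6 without control array 1 or 6 h array 1. Sdhd read 1549, 1624 and 1469 in control liver and 1048, 931 and 854 at 6 h, 1.64-fold lower (log2 change -0.72 ± 0.12, adjusted p = 0.0017). Of 76 mitochondrial ribosomal proteins 6 were higher and 18 lower (29 lower after quantile normalization, 11 lower without control array 3 or 6 h array 3, and 3 higher without control array 2 or 6 h array 2 or 3), with Mrpl12 at 1024, 1028 and 961 in control liver and 461, 444 and 379 at 6 h, 2.35-fold lower (log2 change -1.24 ± 0.13, adjusted p = 1.5e-04), against Mrps18b, 1.65-fold higher (log2 change 0.72 ± 0.09, adjusted p = 4.7e-04). Of 44 mitochondrial carriers 2 were higher and 16 lower (1 higher without control array 1 or 3, 1 h array 2, 3 h array 3 or 6 h array 2 or 3), among them Slc25a23 at 2.7-fold (log2 change -1.43 ± 0.12, adjusted p = 3.1e-05), Slc25a22, which carries glutamate, at 3.04-fold (log2 change -1.60 ± 0.23, adjusted p = 7.1e-04) and Slc25a15, the ornithine carrier of the urea cycle, at 2856, 3392 and 3019 in control liver and 1289.8, 1498 and 1236 at 6 h, 2.31-fold (log2 change -1.20 ± 0.11, adjusted p = 6.1e-05).

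**Figure D4:**
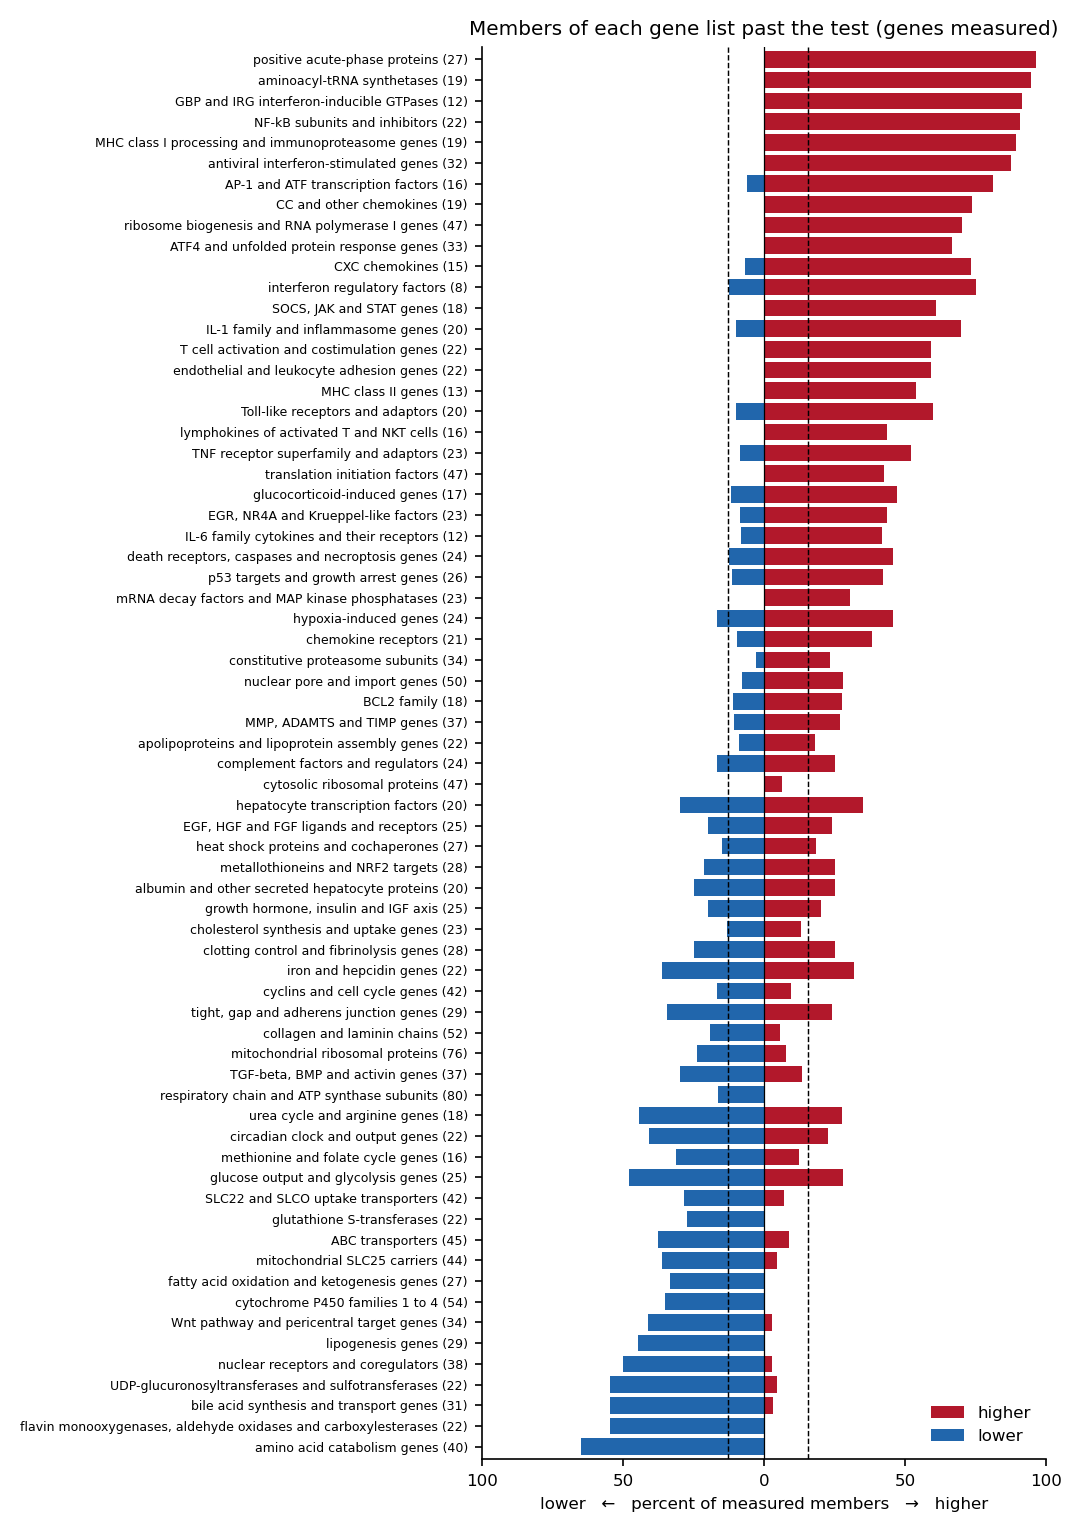
Members of the gene lists that passed the test in each direction, as a share of the measured members (x axis, percent, higher to the right and lower to the left), for the lists other than the cell type markers and the genes the study singled out. The dashed lines mark the share over all 18193 genes, 15.4% higher and 12.7% lower. Interferon, chemokine, NF-kB, acute-phase and tRNA synthetase lists extend to the right, and nuclear receptor, amino acid catabolism, bile acid, lipogenesis and Wnt lists extend to the left.

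Metabolic genes of the hepatocyte are described next. Of 54 cytochrome P450 genes of families 1 to 4, which oxidise drugs and lipids, none was higher (1 without control array 3) and 19 were lower (median log2 change -0.32). Cyp2g1 read 207, 89 and 108 in control liver and 24.9, 14.4 and 15.9 at 6 h, 7.05-fold lower (log2 change -2.82 ± 0.37, adjusted p = 4.3e-04). Cyp2c23 read 614, 701 and 580.1 in control liver and 196, 187 and 136 at 6 h, 3.69-fold lower (log2 change -1.88 ± 0.22, adjusted p = 2.7e-04). Cyp4f15 fell 2.79-fold. Of 22 glucuronosyl- and sulfotransferases 12 were lower and 1 was higher, among them Ugt2b35 at 2314, 2332 and 2171 in control liver and 771, 553 and 419 at 6 h, 4.03-fold lower (log2 change -2.01 ± 0.20, adjusted p = 1.0e-04), and Sult1c2, 5.88-fold lower. Of 22 glutathione S-transferases 6 were lower and none higher (12 after quantile normalization, 10 without 1 h array 1), with Gstm4 2.28-fold lower (log2 change -1.19 ± 0.18, adjusted p = 9.8e-04). Of 22 flavin monooxygenases, aldehyde oxidases and carboxylesterases 12 were lower and none higher. Fmo2 read 417, 272 and 317 in control liver and 19.8, 30.7 and 15.6 at 6 h, 15.6-fold lower (log2 change -3.96 ± 0.32, adjusted p = 2.9e-05). Fmo4 fell 5.56-fold and Ces1f 2.22-fold.

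Transporters were lower more often than higher. Of 45 ABC transporters 17 were lower and 4 higher. Abcg5, which exports sterols as a pair with Abcg8, read 971, 915 and 888 in control liver and 381, 225 and 218 at 6 h, 3.49-fold lower (log2 change -1.80 ± 0.21, adjusted p = 2.7e-04). Abcg8 read 536, 645 and 576 in control liver and 114, 99 and 84 at 6 h, 5.94-fold lower (log2 change -2.57 ± 0.16, adjusted p = 6.4e-06). Both fell on every array. Abca1, which loads cholesterol on high-density lipoprotein, read 2004, 1998 and 2292 in control liver and 4157, 5271 and 5021 at 6 h, 2.29-fold higher (log2 change 1.19 ± 0.16, adjusted p = 4.5e-04). Abcc1 rose 4.22-fold. Of 42 uptake transporters 12 were lower and 3 higher, with Slc22a23 at 446, 457 and 457 in control liver and 92.8, 90.2 and 74 at 6 h, 5.32-fold lower (log2 change -2.41 ± 0.11, adjusted p = 1.1e-06), and Slc10a6, a carrier of sulfated steroids, at 8.8, 24.3 and 16.4 in control liver and 114, 418 and 315 at 6 h, 16.2-fold higher (log2 change 4.02 ± 0.53, adjusted p = 4.8e-04).

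Of 31 genes of bile acid synthesis and transport 17 were lower and 1 higher (median log2 change -0.63). Cyp7a1, which sets the pace at which bile acids are made from cholesterol, read 1598, 2747 and 579 in control liver and 11.8, 25.2 and 5.12 at 6 h, 119-fold lower (log2 change -6.89 ± 0.76, adjusted p = 1.7e-04). Its controls spread more than 4-fold and its log2 change was -7.51 without control array 3, with no overlap between the groups. Cyp8b1, which makes cholic acid, read 2044, 1905 and 1232 in control liver and 373, 472 and 344 at 6 h, 4.29-fold lower (log2 change -2.10 ± 0.29, adjusted p = 6.4e-04). Cyp7a1 and Cyp8b1 were below all controls on every array. Klb, the coreceptor through which FGF15 represses Cyp7a1, read 224, 292 and 226 in control liver and 52.7, 48.2 and 23.7 at 6 h, 6.27-fold lower (log2 change -2.65 ± 0.29, adjusted p = 1.7e-04). Nr0b2 (SHP), a repressor of Cyp7a1, read 554, 471 and 956 in control liver and 537, 285 and 188 at 6 h, with overlapping groups (adjusted p = 0.14).

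In glucose metabolism 12 of 25 genes were lower and 7 higher. G6pc, the enzyme that releases free glucose, read 1548, 2079.5 and 1463 in control liver and 19.2, 107 and 130.4 at 6 h, 26-fold lower (log2 change -4.70 ± 0.93, adjusted p = 0.0043), with a log2 change of -3.83 without 6 h array 1. Slc2a2 (GLUT2), the glucose carrier of the hepatocyte, read 4080.2, 4213 and 4090.3 in control liver and 1088, 894 and 692 at 6 h, 4.71-fold lower (log2 change -2.24 ± 0.17, adjusted p = 2.6e-05). Pck1, of gluconeogenesis, fell 1.69-fold (log2 change -0.76 ± 0.17, adjusted p = 0.0084). G6pc, Slc2a2 and Pck1 showed no overlap between the groups. Hexokinase 2 (Hk2) and Pfkfb3, enzymes of glycolysis, were among the higher genes. Pkm, the pyruvate kinase of tissues other than liver, read 38.6, 63.5 and 30.8 in control liver and 205, 147 and 219.8 at 6 h, 4.45-fold (log2 change 2.15 ± 0.35, adjusted p = 0.0014).

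Genes of amino acid breakdown were lower in most cases, with 26 of 40 genes lower and none higher (median log2 change -0.51). Hal, which degrades histidine, read 1238, 1329 and 1374 in control liver and 345, 369 and 258 at 6 h, 4.1-fold lower (log2 change -2.03 ± 0.15, adjusted p = 2.0e-05). Got1 read 1440.2, 2003 and 1279.8 in control liver and 386, 573 and 375 at 6 h, 3.54-fold lower (log2 change -1.83 ± 0.24, adjusted p = 4.2e-04), and Kynu and Amdhd1 each fell 3.0-fold. Tdo2, which degrades tryptophan, read 6953, 7189 and 6461 in control liver and 5568, 7143 and 6058 at 6 h (adjusted p = 0.36, and 0.036 after quantile normalization). Of 18 urea cycle and arginine genes 8 were lower and 5 higher (5 lower without control array 2). Arg1 read 6831, 6387 and 6780.1 in control liver and 3823, 4516 and 3436 at 6 h, 1.71-fold lower (log2 change -0.77 ± 0.11, adjusted p = 8.4e-04). Cps1, the first enzyme of the cycle, read 8088, 8762 and 9035 in control liver and 7470.3, 8125 and 6978 at 6 h (adjusted p = 0.14, and 0.0021 after quantile normalization). Slc7a1, an arginine carrier of most tissues outside the liver, read 22.9, 21.5 and 31.2 in control liver and 173, 189 and 154 at 6 h, 6.89-fold higher (log2 change 2.78 ± 0.24, adjusted p = 4.6e-05). Nos2, the inducible nitric oxide synthase, rose 5.01-fold, and Glul, glutamine synthetase, 2.09-fold. Of 16 methionine and folate genes 5 were lower and 2 higher (10 and 2 after quantile normalization, 3 lower without control array 1 or 2), and Mthfd2, the mitochondrial folate enzyme of growing cells, read 24.5, 20.9 and 34.1 in control liver and 118, 145 and 228 at 6 h, 6.07-fold higher (log2 change 2.60 ± 0.33, adjusted p = 3.9e-04).

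Of 29 lipogenesis genes 13 were lower and none higher (median log2 change -0.81, with 2 higher without control array 2 and 1 without 1 h array 2 or 3 or 6 h array 1). G0s2, an inhibitor of fat breakdown, read 668, 990.2 and 255 in control liver and 35.8, 30.3 and 0.745 at 6 h, 37.1-fold lower (log2 change -5.21 ± 0.90, adjusted p = 0.0022), with a log2 change of -5.84 without 6 h array 1 and -4.07 without 6 h array 3. Srebf1, the regulator of fat synthesis, read 2516, 1828 and 2807 in control liver and 694, 643 and 505 at 6 h, 3.85-fold lower (log2 change -1.95 ± 0.26, adjusted p = 5.0e-04). Gpam fell 3.53-fold and Lpin2 4.19-fold. Fasn read 3208, 2159 and 3681 in control liver and 1157, 1526 and 1240.2 at 6 h and did not pass (adjusted p = 0.11). Fasn was below control on all arrays of 6 h, and it passed with the 6 arrays alone in the fit (adjusted p = 0.024). Of 27 genes of fatty acid oxidation 9 were lower and none higher (15 lower after quantile normalization, 5 without control array 1 or 2 or 6 h array 3), including Hadh 1.75-fold and Bdh1 1.79-fold. Cholesterol genes were balanced, 3 higher and 3 lower of 23 (4 and 6 after quantile normalization, 1 higher without control array 1 and 7 without 1 h array 1), with Srebf2 at 101, 110.0 and 60.6 in control liver and 224, 298 and 254 at 6 h, 2.93-fold higher (log2 change 1.55 ± 0.25, adjusted p = 0.0016), and its escort Scap 2.27-fold lower (log2 change -1.18 ± 0.13, adjusted p = 2.1e-04). Srebf2 and Scap thus moved in opposite directions. Apolipoproteins were 4 higher (18.2%) and 2 lower (9.1%) of 22, against 15.4% and 12.7% of all genes (4 and 6 after quantile normalization). Mttp, which loads fat on apolipoprotein B, read 1904, 1860.1 and 1662 in control liver and 944, 1009.9 and 772 at 6 h, 2.0-fold lower (log2 change -1.0 ± 0.13, adjusted p = 4.9e-04).

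Iron genes moved in both directions, 7 higher and 8 lower of 22. Hjv (hemojuvelin), the coreceptor that induces hepcidin, read 627, 762 and 642 in control liver and 61.5, 28.3 and 42 at 6 h, 16.1-fold lower (log2 change -4.01 ± 0.26, adjusted p = 1.0e-05). Bmp6, its ligand, read 26.1, 33.2 and 24 in control liver and 1.1, 2.07 and 2.65 at 6 h, at least 9.03-fold lower (log2 change -3.18 ± 0.25, adjusted p = 2.9e-05). Slc40a1 (ferroportin), which exports iron, read 1474, 1624 and 1252 in control liver and 473, 464 and 351 at 6 h, 3.39-fold lower (log2 change -1.76 ± 0.17, adjusted p = 7.4e-05). Hepcidin was higher on the same arrays. The importers Slc39a14 and Slc11a2 went the opposite way to ferroportin. Slc39a14 (ZIP14) read 646, 841 and 672 in control liver and 2779, 3519 and 3331 at 6 h, 4.47-fold higher (log2 change 2.16 ± 0.13, adjusted p = 6.7e-06). Slc11a2 (DMT1) read 71.7, 63 and 59.7 in control liver and 259.5, 318 and 317 at 6 h, 4.6-fold higher (log2 change 2.20 ± 0.16, adjusted p = 1.7e-05).

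Matrix proteases included some of the larger rises. Of 37 MMP, ADAMTS and TIMP genes 10 were higher and 4 lower, of which Mmp13, a collagenase, read 6.95, 6.77 and 4.03 in control liver and 369, 376 and 311 at 6 h, 61.1-fold up (log2 change 5.93 ± 0.22, adjusted p = 4.4e-07). Adamts4 read 4.13, 7.5 and 6.4 in control liver and 235, 274 and 213 at 6 h, 41-fold up (log2 change 5.36 ± 0.21, adjusted p = 6.3e-07). Timp1, an inhibitor of MMP proteases, rose 14-fold, with a log2 change of 3.12 without control array 1. Of 52 collagen and laminin chains 3 were higher and 10 lower (6 lower without control array 3 or 6 h array 3). Col4a1, of basement membrane, read 326, 352 and 328 in control liver and 1394, 1618 and 1485 at 6 h, 4.47-fold up (log2 change 2.16 ± 0.17, adjusted p = 2.5e-05). In clotting and fibrinolysis 7 of 28 genes were higher and 7 lower. Plaur, the urokinase receptor, read 10.6, 14 and 7.59 in control liver and 203, 187 and 247 at 6 h, 20.2-fold up (log2 change 4.34 ± 0.32, adjusted p = 1.9e-05). Procr, the endothelial receptor of protein C, read 14.2, 10.6 and 9.61 in control liver and 173, 122 and 143 at 6 h, 12.8-fold up (log2 change 3.67 ± 0.29, adjusted p = 2.9e-05). Klkb1 (prekallikrein) read 1315, 1198 and 1044 in control liver and 389, 313 and 327 at 6 h, 3.46-fold lower (log2 change -1.79 ± 0.11, adjusted p = 7.0e-06).

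Junction genes were 7 higher and 10 lower of 29. The connexins of gap junctions moved in opposite directions. Gjb1 (connexin 32), of hepatocytes, read 2476, 2463 and 2196 in control liver and 1342, 1312 and 1073 at 6 h, 1.92-fold lower (log2 change -0.94 ± 0.11, adjusted p = 3.1e-04). Gja1 (connexin 43) read 69.7, 73.7 and 54.4 in control liver and 371, 375 and 373 at 6 h, 5.7-fold higher (log2 change 2.51 ± 0.13, adjusted p = 2.6e-06). Cldn1, of tight junctions, read 229.7, 264 and 265 in control liver and 28.4, 24.6 and 57.7 at 6 h, 7.36-fold lower (log2 change -2.88 ± 0.29, adjusted p = 1.0e-04). Cldn14 rose 4.84-fold. Claudins, like connexins, moved both ways. Among 25 ligands and receptors of the EGF, HGF and FGF families 6 were higher and 5 lower, with Hbegf 7.11-fold up (log2 change 2.83 ± 0.32, adjusted p = 1.9e-04) and Egfr 2.36-fold up (log2 change 1.24 ± 0.21, adjusted p = 0.002). In the growth hormone and insulin axis 5 of 25 were higher and 5 lower (3 higher without control array 1 or 6 h array 2). Irs1, the insulin receptor substrate, read 221, 243 and 302 in control liver and 25.8, 44.6 and 37.2 at 6 h, 7.24-fold lower (log2 change -2.86 ± 0.30, adjusted p = 1.4e-04). Ghr fell 1.65-fold.

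Of 37 TGF-beta, BMP and activin genes 5 were higher and 11 lower. Inhbb, the subunit of activin B, read 7.75, 16.5 and 11.9 in control liver and 301, 349.6 and 360.4 at 6 h, 29.2-fold up (log2 change 4.87 ± 0.27, adjusted p = 3.4e-06). Inhba, of activin A, read 30.6, 43.7 and 44.6 in control liver and 14.8, 5.92 and 6.79 at 6 h, 4.64-fold lower (log2 change -2.21 ± 0.47, adjusted p = 0.0067). Gdf2 (BMP9) read 127, 118 and 122 in control liver and 20.1, 12.3 and 10.1 at 6 h, 9.0-fold lower (log2 change -3.17 ± 0.25, adjusted p = 2.9e-05). Of 34 Wnt pathway and pericentral target genes 14 were lower and 1 higher (median log2 change -0.53). The 1 that rose was the pericentral gene Glul, given above with the urea cycle (log2 change 1.06). Lgr5, the R-spondin receptor of hepatocytes around the central vein, read 75.9, 73.6 and 74.5 in control liver and 11.1, 13.2 and 10.7 at 6 h, 6.42-fold lower (log2 change -2.68 ± 0.17, adjusted p = 9.5e-06). Wnt2, a ligand from endothelial cells, read 50.6, 44.9 and 37.3 in control liver and 11.1, 2.41 and 0.556 at 6 h, 9.38-fold lower (log2 change -3.23 ± 0.48, adjusted p = 8.8e-04), with a log2 change of -3.85 without 6 h array 1. Fzd8 fell 5.79-fold. The receptors and the ligand were below control on every array. Axin2, a common target, read 43.7, 68.4 and 40.2 in control liver and 29.5, 38.1 and 38.3 at 6 h (adjusted p = 0.16).

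Of the genes that the study singled out by name 25 were listed here, and all of these were measured. The list does not hold every gene of the study's network. Since the study chose them on these arrays, their direction is not independent evidence. On the arrays all 25 were lower at 6 h, with log2 changes from -3.83 to -0.60 and no overlap between groups. The study's RT-PCR, run on RNA of the same samples, did not give a fall for many of them. Its values at 6 h were above control for Dpp4, Mpdz, Hlf, Colec11, Klb and Tert among others. Of the values above control only that of Dpp4 was marked significant at 6 h. In the study's network, the values of Acsl1, Car5a, Gpd1l and Pde7b were below control at 6 h and marked significant. So was a row labelled Fastkd1, though not the other row of that label. Map2k6, a kinase that activates p38, read 122, 137 and 103 in control liver and 9.29, 6.47 and 10 at 6 h, 14.2-fold lower (log2 change -3.83 ± 0.22, adjusted p = 5.4e-06). Tert, the telomerase subunit, read 33.9, 69.5 and 33.4 in control liver and 4.79, 4.54 and 7.04 at 6 h, 8.0-fold lower (log2 change -3.0 ± 0.37, adjusted p = 3.4e-04). Pde7b, a phosphodiesterase of cyclic AMP, read 143, 172 and 115 in control liver and 20.5, 16.9 and 22.1 at 6 h, 7.18-fold lower (log2 change -2.84 ± 0.16, adjusted p = 3.7e-06). All arrays of 6 h were far below the controls in these. Car5a, the carbonic anhydrase of liver mitochondria, fell 6.67-fold. Sox5 fell 5.95-fold, Colec11 5.11-fold, Slc29a1 (the nucleoside carrier ENT1) 4.55-fold and Fn3k 4.5-fold. Mpdz and Pard3, scaffolds of cell polarity, fell 2.96-fold and 2.69-fold, and Cdh2 (N-cadherin) 2.86-fold. The least change was that of Dpp4, at 458, 454 and 429 in control liver and 312, 316 and 259 at 6 h, 1.52-fold lower (adjusted p = 0.027), a call lost without control array 1, 2 or 3 or 6 h array 1 or 3 (adjusted p 0.05 to 0.095).

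Against the arrays of 3 h, which shared the fit, 4111 genes differed at 6 h (22.6%). The arrays of 3 h had lower medians than those of 6 h, and the median gene was 0.24 higher at 6 h on the log2 scale as deposited and 0.00 after quantile normalization, so that 3414 genes were higher and 697 lower as deposited and 1697 and 1865 after quantile normalization. Both values are therefore given. The genes named next were above control at 6 h and higher still than at 3 h, or below control and lower still, each past the test under both scalings. A2m read 21.8, 19.8 and 13.1 at 3 h and was 5.63 higher on the log2 scale at 6 h (adjusted p = 3.1e-04, and 5.31 after quantile normalization). Other late rises were those of Il21 at 3.07 (2.82 after quantile normalization), Cdkn1a at 2.78 (2.50), Procr at 2.67 (2.30) and Asns at 2.34 (1.97). Late falls were seen as well. Sucnr1 read 58.1, 84 and 87.1 at 3 h and was lower by a log2 difference of -3.67 at 6 h (-4.02 after quantile normalization), and Fmo2 differed by -3.03 (-3.36), Marveld1 by -2.94 (-3.28) and Cd163 by -2.50 (-2.86).

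Some genes that were above control at 6 h had been higher at 3 h. The log2 difference of 6 h from 3 h was -1.79 for Cxcl10 (adjusted p = 0.0066, and -1.88 after quantile normalization), -1.43 for Il1b (-1.73), -1.26 for Icam1 (-1.40), -1.02 for Tnfaip3 (-1.20) and -0.95 for Irf1 (-1.07), each past the test under both scalings. Ppara, lower than control at 6 h, stood 0.93 above its level of 3 h (0.68 after quantile normalization).

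**Figure D5:**
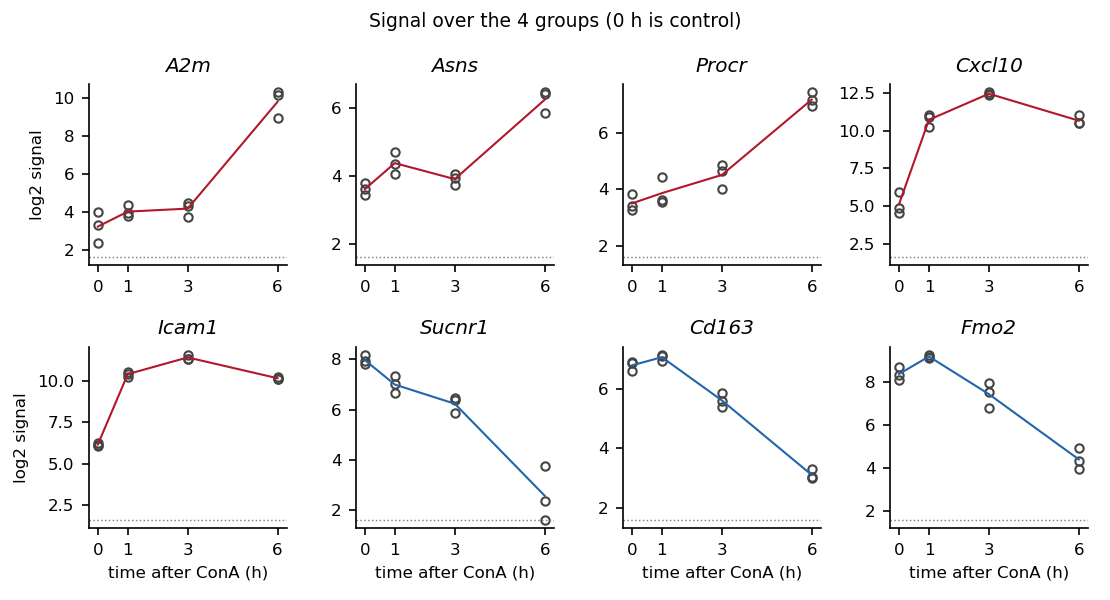
Log2 signal on each of the 12 arrays (y axis) of 8 genes at 0 h (control), 1 h, 3 h and 6 h (x axis), as deposited, with a line through the group means. A2m, Asns and Procr rise between 3 h and 6 h, Cxcl10 and Icam1 are lower at 6 h than at 3 h and above control, and Sucnr1, Cd163 and Fmo2 fall between 3 h and 6 h.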

How the data were processed

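Total RNA of whole liver had been hybridised to Affymetrix Mouse 430 2.0 arrays, 3 per group and 12 in all. The authors deposited linear intensity values per probe set. Per the submitters' processing notes they came from MAS5 (version 5.0), whereas the methods name RMA, so the summary and the scaling between arrays are not settled. Analysis of variance with a random variance model was the study's own test.

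The tests here started from those intensity values. Values under the 20th percentile (3.04) were raised to it, and log2 was taken. Of 45101 probes 64 were array controls. Of the rest, 34945 had 1 gene symbol, 932 several and 9160 none. Symbols were updated through Entrez identifiers to RefSeq GRCm38.p6 for 34741 probes and kept for 204. The brightest probe stood for a gene. Of 3022 called genes with several probes, 34 had a probe called in the other direction, none of them a gene whose change is described here. limma 3.58.1 in R 4.3.3 fitted the 4 group means over all 12 arrays, with Benjamini-Hochberg adjustment over 18193 genes. The fit was tested on simulated data with known changes. The number of arrays limits the precision.

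Genes were named by rule: the 12 largest rises and falls of genes with a name of their own, the first 3 members and the 5 largest called changes of each gene list, and the listed genes that the study singled out. The 12 rises and 12 falls were taken only from called genes whose 3 arrays of 6 h all lay beyond the 3 controls. The gene lists and the named genes were chosen with earlier results of these data known. Alternatives were quantile normalization, log2(value + 1) with no floor, a filter on dim probes, an intensity trend, the replicate number as a block, the 6 arrays alone, the mean of all probes and leaving out each array.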

Additional observations from a re-analysis of the deposited data

Results flagged for a closer look

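Some genes went in opposite directions against control at 6 h and at an earlier time, with the difference itself past the test (limma, adjusted over all genes, 3 arrays per group). Hnf4a was 0.73 above control at 6 h on the log2 scale (adjusted p = 0.0012) and -0.37 from control at 3 h (adjusted p = 0.046), a difference of 1.10 between 6 h and 3 h (adjusted p = 6.0e-04). After quantile normalization the change at 3 h no longer passed (-0.26, adjusted p = 0.19), while the difference did (0.89, adjusted p = 0.0013). Tsc22d3 was -0.88 from control at 6 h (adjusted p = 0.0028) and 0.98 above it at 1 h (adjusted p = 0.015), a difference of -1.87 between 6 h and 1 h (adjusted p = 6.8e-05). After quantile normalization its change at 1 h was 0.85 (adjusted p = 0.08) and the difference -1.83 (adjusted p = 1.4e-04). Each of these comparisons uses the same 3 control arrays.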

How the results depend on the processing

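No alternative reversed the direction of any gene described, and the counts of genes, probes, named genes and list members in all stayed within 1.5 times the value reported under every alternative run. Counts of single lists that moved by more when 1 array was left out are given in the text of those lists. The count of higher genes ranged from 2587 to 2883 over 7 settings and from 2179 (without 6 h array 2) to 2869 when 1 of 12 arrays was left out. That of lower genes ranged from 1934 (mean of all probes) to 3227 (quantile normalization), and from 1794 (without control array 2) to 2383. Counted by probe, 5415 were higher and 3768 lower, with 4026 to 5557 and 2833 to 3915 when 1 array was left out, and 4883 and 5345 after quantile normalization. Of the named genes 156 differed between 6 h and 3 h (135 to 170 over the settings, 125 to 163 without 1 array), and of the members of the lists 947 were called (887 to 1071, and 809 to 984). With the replicate number as a block, 2801 genes were higher and 2349 lower, and the arrays share only a number: the deviations of arrays with the same number from their group means correlated at -0.0054 to 0.041, those of the others at -0.0553 to 0.0337. Arntl lost its call in that block (adjusted p = 0.0631). B2m, Il4 and Tnf lost theirs with the 6 arrays alone (adjusted p = 0.0592, 0.054 and 0.063), and B2m also after quantile normalization (0.181) and with log2(value + 1) (0.0904). Arntl also lost it with the mean of all probes (0.149). H2-Aa, which had missed the threshold, passed under 4 settings (adjusted p from 0.0192 to 0.0499), Fasn with the 6 arrays alone (0.0243), Cps1 after quantile normalization (0.00213), and Tdo2 after it (0.036) and with the mean of all probes (0.0139). The fold of a gene near the floor of 3.04 is compressed, and the 3 arrays a group limit the precision.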
